A study of Mus musculus with 47 samples.

Results

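Chemokines are small secreted proteins that guide the movement of leukocytes and other cells, and they act through receptors that couple to G proteins. The members described here are the genes whose symbols begin with Ccl, Cxcl, Ccr, Cxcr, Xcl, Xcr or Ackr followed by a number, together with Cx3cl1 and Cx3cr1, a rule on names alone. Under this rule 55 of the 20456 genes in the count table are described, 33 of them ligands and 22 of them receptors. RNA-seq had been done on liver, lung and brain of mouse embryos at E18.5, just before birth, in 47 libraries of 12 groups. The labels give the strain as C57BL/6, and by the study's methods the alleles were made in C57BL/6N zygotes and the founders were backcrossed to C57BL/6J. The mutant embryos were homozygous for 1 of 2 knock-in alleles of Daxx, a chaperone of histone H3.3 that also binds the chromatin remodeler Atrx. The embryos called S226A are Daxx S226A/S226A, with a serine exchanged for alanine in the part that binds H3.3, and those called Y130A are Daxx Y130A/Y130A, with a tyrosine exchanged for alanine in the part that binds Atrx. The paper also reports less Daxx protein in S226A and more in Y130A than in wild type, most clearly in embryonic fibroblasts. The mutants therefore differ in the amount of Daxx as well as in its binding. The reference for each mutant were the wild-type embryos from its own 4 litters, and each group held 4 libraries, except for 3 in the lungs of the wild-type Y130A littermates. Both alleles were made with CRISPR/Cas9 in founder mice, carry further silent changes and are present in every cell, so that an effect cannot be assigned to a cell type. The libraries come from whole tissue, in which fewer cells of a type and less RNA per cell cannot be told apart.

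The ligands are divided by the spacing of their first cysteines into the CC, CXC, C and CX3C classes, and many receptors bind several ligands of 1 class. Cxcl12 and its receptor Cxcr4 hold blood-forming cells and B cell precursors in the fetal liver and bone marrow and guide migrating neurons, Cx3cr1 marks microglia and many tissue macrophages, and Ccr2 marks monocytes that leave the blood-forming tissue. The atypical receptors Ackr1 to Ackr4 bind chemokines without G protein signalling and take them up or present them. At this age the liver still makes blood, the lung is close to its first breath and the brain holds microglia that settled early in development.

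A member was tested in a tissue if at least 4 libraries of that tissue held 10 or more counts. This left 32 members in liver (18 ligands and 14 receptors), 32 in lung (22 and 10) and 20 in brain (12 and 8). In all, 40 members were tested in at least 1 tissue and 17 in all 3 tissues. The other 15, Ccl1, Ccl4, Ccl8, Ccl17, Ccl26, Ccr1l1, Ccr4, Ccr6, Ccr8, Ccr10, Cxcl2, Cxcr1, Cxcr6, Xcl1 and Xcr1, were too low in every tissue, with at most 31 counts in any library. Of the members, 14 lie on chromosome 11, 13 on chromosome 9 and 10 on chromosome 5. Annotated symbols such as Ccl19, Ccl21a, Ccl21b, Ccl27b and Cxcl11 match the rule but were not analysed here. Library totals were 15722147 to 26190403 counts in the S226A litters (median 20341531) and 36351738 to 54885020 in the Y130A litters (median 44523912), so that low genes were measured with more counts in the Y130A set. The tissues carried their own markers: the summed level of 4 hepatocyte genes (Alb, Apoa1, Ttr and Afp) was at least 139363 CPM (the usual unit of counts relative to library size) in each liver, that of 4 alveolar genes at least 6720 CPM in each lung and that of 4 neuronal genes at least 4964 CPM in each brain. In 2 livers, the second wild-type liver of the S226A litters and the first Y130A liver, 8 genes of squamous epithelium summed to 198 and 134 CPM, against 0.465 to 3.44 CPM in the other livers.

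In wild-type embryos each tissue had its own leading members, here ranked by RPKM (reads divided by exon length and library size, mean ± SD over wild-type libraries). The liver was led by Ccl9, a CC ligand made by myeloid cells, at 32.8 ± 3.32 (SD, n = 8). It was followed by Cxcr4 at 20.1 ± 2.38, Cxcl12 at 15.3 ± 3.56, the atypical receptor Ackr1 at 10.6 ± 1.97 and the eosinophil attractant Ccl24 at 7.16 ± 1.70. The lowest Ccl9 value among these libraries, 28.8, lay above the highest Cxcr4 value, 24.6, whereas from Cxcr4 down to Ccl24 each neighbour in the order overlapped with the next.

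The lung was led by Cxcl15, known as lungkine and made by airway and alveolar epithelium, at 361 ± 110.1 RPKM (SD, n = 7), which was 80.8% of the summed RPKM of all 55 members. Cxcr4 followed at 18.8 ± 2.64, Cxcl12 at 11.8 ± 4.17, the Cxcl12 scavenger Ackr3 at 7.61 ± 0.858 and Ccl6 at 6.42 ± 1.71, with overlap between each of these neighbours. No read of Cxcl15 was counted in any of the 16 livers, where a count of 0 allows up to 3 counts per library. The brain was led by Ccl27a at 19.3 ± 1.99 RPKM (SD, n = 8), a ligand best known from skin, and by Cxcr4 at 16.9 ± 1.44. Cx3cl1, the neuronal ligand of Cx3cr1 also called fractalkine, stood at 10.3 ± 0.994, Cxcl14 at 5.14 ± 0.848 and Ackr3 at 4.55 ± 0.458. The ranges of Ccl27a and Cxcr4 overlapped, as did those of Cxcl14 and Ackr3, and Cx3cl1 lay apart from both pairs.

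**Figure D1:**
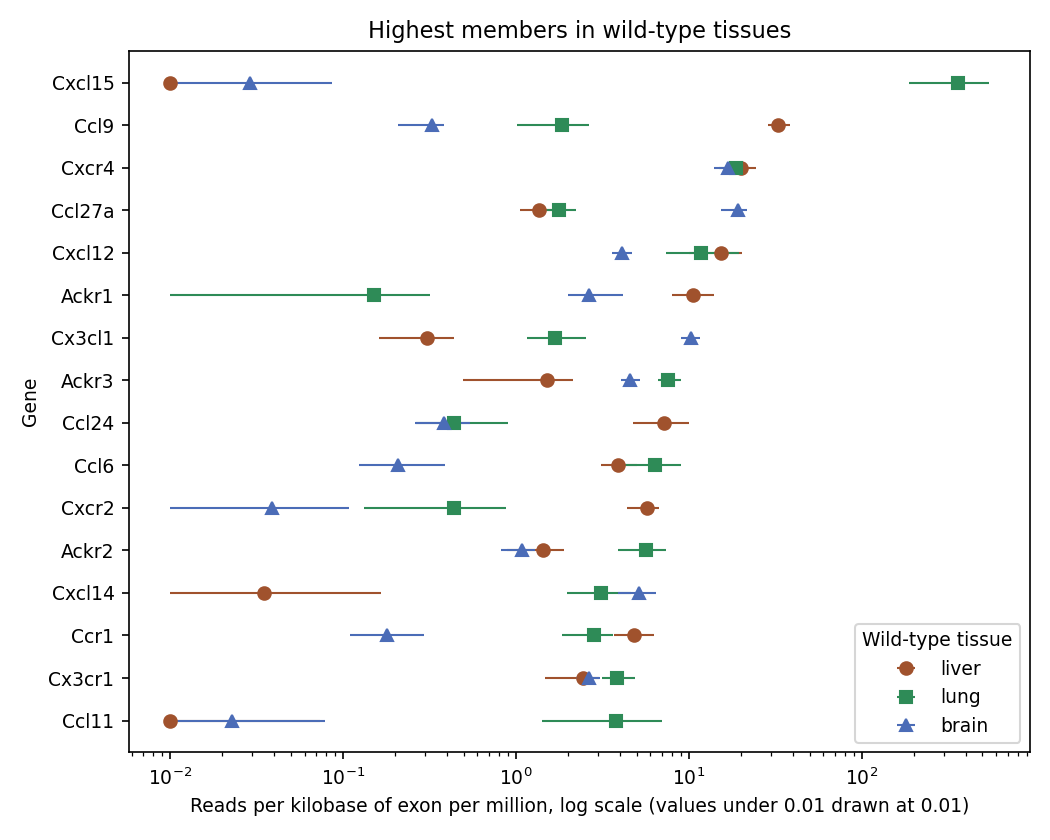
Mean RPKM of the members that ranked among the 8 highest in at least 1 wild-type tissue, on a log axis, with bars from the lowest to the highest wild-type library (n = 8 livers, 7 lungs and 8 brains). Cxcl15 in lung lies above every other value, Cxcr4 has nearly the same level in all 3 tissues, and Ccl27a and Cx3cl1 are highest in brain.

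Differences between wild-type tissues were tested with edgeR's quasi-likelihood test and Benjamini-Hochberg adjustment, with a call at an adjusted p below 0.05 and a log2 fold change beyond 1. Of 34 members tested in liver or brain, 21 were higher in liver (background over all genes, 28.3%) and 5 were lower (background 31.6%). Of 33 tested in lung or brain, 18 were higher in lung (background 27.4%) and 4 lower (background 24.7%). Between lung and liver, 13 of 40 were higher in lung (background 26.6%) and 14 lower (background 20.9%). Genes entered each of these tests by passing the count filter in either tissue. Some members passed only where they are high: Ccr2 and Cxcr2 failed the filter in brain, and Cxcl15 passed in lung alone. Their direction was largely set by the filter, so these counts are only described. The 5 members lower in liver than in brain were Ackr3, Ccl27a, Ccl28, Cx3cl1 and Cxcl14. Cx3cl1 was lower in liver than in brain by a log2 of -5.07 (SE 0.20, edgeR adjusted p = 1.05e-25), and its receptor Cx3cr1 differed between these tissues by -0.12 (SE 0.13, edgeR adjusted p = 0.387). Cxcr4 differed by 0.25 between liver and brain (SE 0.07, edgeR adjusted p = 0.00224) and by -0.09 between lung and liver (SE 0.08, edgeR adjusted p = 0.307), and its ligand Cxcl12 was higher in liver than in brain by 1.87 (SE 0.10, edgeR adjusted p = 1.3e-21). The wild-type livers of the S226A litters held 135 to 167 CPM of Cxcl12 and those of the Y130A litters 82.8 to 112 CPM, without overlap, so that each mutant is set only against its own littermates below.

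In S226A embryos 8 members were called in at least 1 tissue, 6 receptors and 2 ligands. In S226A liver the receptors Cxcr4, Ccr1 and Cxcr2 and the ligand Ccl6 were higher, and the receptors Cx3cr1 and Ackr2 and the ligand Cxcl16 were lower. That is 4 higher (12.5%) and 3 lower (9.38%) of 32 members, against a background of 7.02% higher and 6.21% lower over all 14664 genes tested in liver. In S226A lung, Cx3cr1, Ccr2 and Ccl6 were lower, 3 of 32 members (9.38%) against a background of 1.13%, and 0 were higher with edgeR or DESeq2 (background 1.02%). An unadjusted edgeR p below 0.05 in either direction was seen there for 10 members, and for 2594 of all 15554 genes tested. In S226A brain, Cx3cr1 was lower, 1 of 20 members (5%) against a background of 0.199%, and 0 were higher with edgeR or DESeq2 (background 0.0577%). Here 5 members had an unadjusted edgeR p below 0.05 in either direction, as did 306 of all 15596 genes tested. By the more stringent criterion of an adjusted p below 0.01, a log2 fold change beyond 1 and a standard error below 1, Ccr1, Cx3cr1 and Cxcl16 remained in liver (background 2.44%), Ccr2 and Cx3cr1 in lung (background 0.321%) and Cx3cr1 in brain (background 0.141%). The median log2 fold change of the members tested was 0.15 in liver, 0.01 in lung and -0.10 in brain, beside -0.02, 0.01 and 0.00 over all genes tested.

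**Figure D2:**
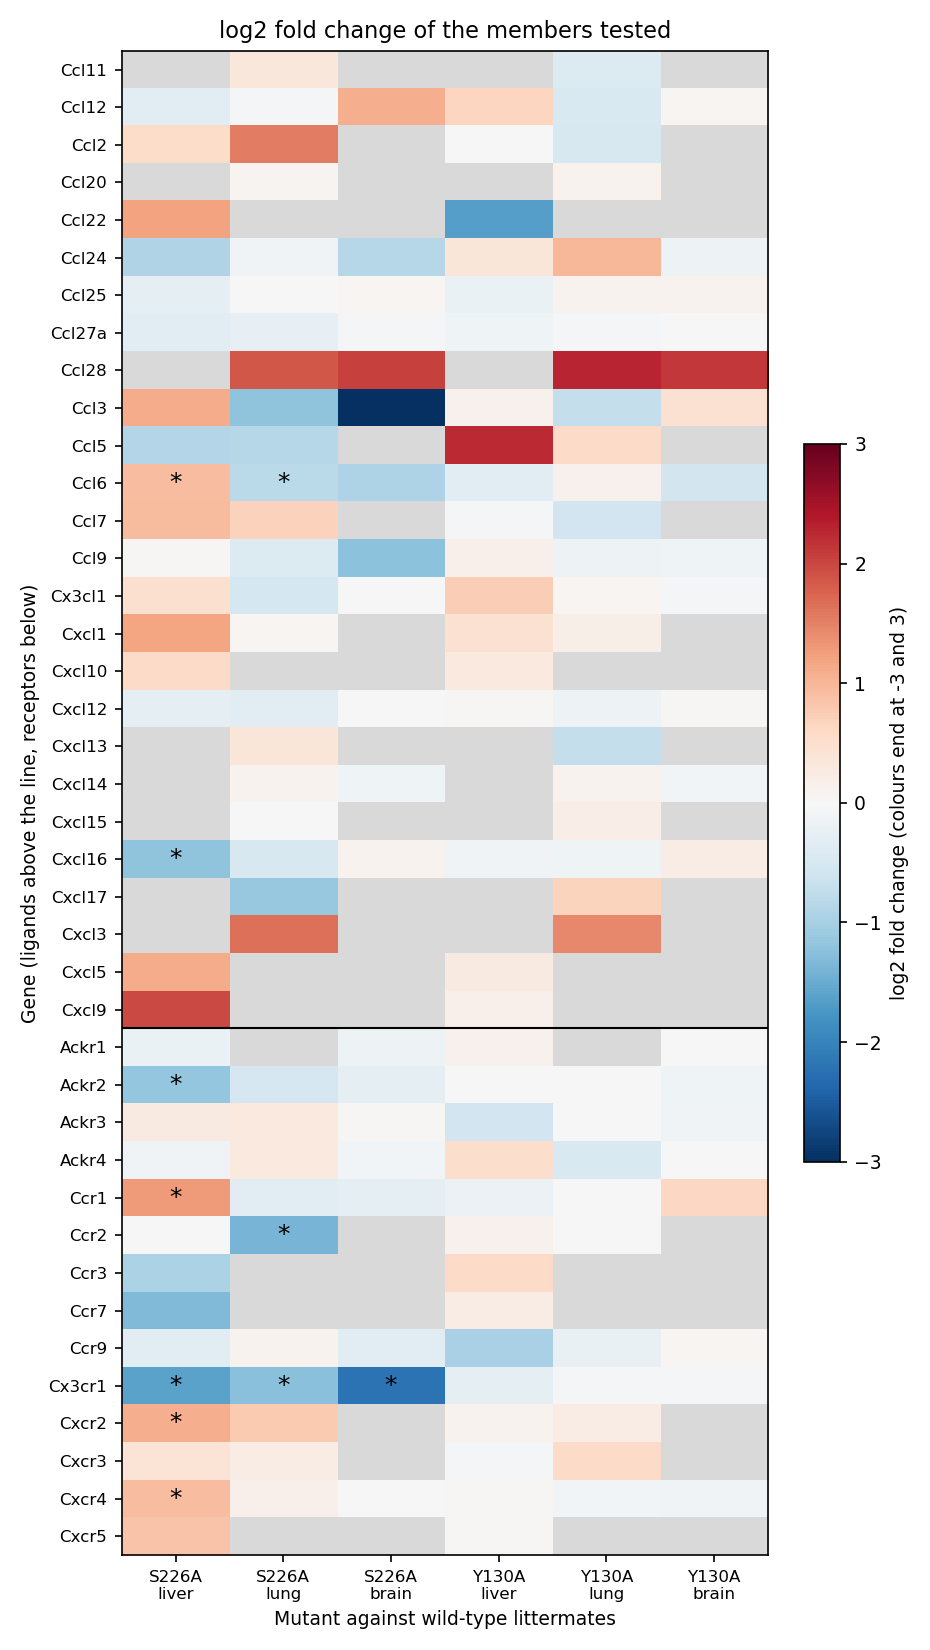
log2 fold changes of the 40 members tested in at least 1 tissue, for each mutant against its wild-type littermates. An asterisk marks an edgeR adjusted p below 0.05, grey marks members not tested in a tissue, and the colours end at -3 and 3; Cx3cr1 is marked in all 3 S226A tissues and no member is marked in Y130A.

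The 250 bases before the RefSeq start (GRCm38.p6) were read for each member at hand and searched for GAGGAA on both strands, a sequence that is found in many binding sites of the myeloid factor PU.1 (Spi1). A match is given in capitals, as GAGGAA on the strand of the gene or as TTCCTC where it is on the other. Shown are 5 of the 6 receptors called in S226A, of which Cx3cr1 and Ccr2 were lower in S226A and Cxcr4, Ccr1 and Cxcr2 were higher in S226A liver. The sequences run from 5′ to 3′ on the strand of the gene. The RefSeq starts of Cx3cr1, Ccr2 and Cxcr2 lie inside the longer gene models of the annotation used below, so that their windows overlap with those models.
Cx3cr1, chr9:120068297-120068546, minus strand: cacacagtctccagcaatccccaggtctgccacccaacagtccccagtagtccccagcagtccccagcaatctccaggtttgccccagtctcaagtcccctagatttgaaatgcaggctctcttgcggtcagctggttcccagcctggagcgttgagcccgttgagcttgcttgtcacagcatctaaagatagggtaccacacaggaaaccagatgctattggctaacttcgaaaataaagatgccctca
Ccr2, chr9:124101933-124102182, plus strand: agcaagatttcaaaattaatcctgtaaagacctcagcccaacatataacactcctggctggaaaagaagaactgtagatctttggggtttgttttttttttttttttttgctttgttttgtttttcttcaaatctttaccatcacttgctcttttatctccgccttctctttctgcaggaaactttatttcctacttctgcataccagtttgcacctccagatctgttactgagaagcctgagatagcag
Cxcr4, chr1:128592300-128592549, minus strand: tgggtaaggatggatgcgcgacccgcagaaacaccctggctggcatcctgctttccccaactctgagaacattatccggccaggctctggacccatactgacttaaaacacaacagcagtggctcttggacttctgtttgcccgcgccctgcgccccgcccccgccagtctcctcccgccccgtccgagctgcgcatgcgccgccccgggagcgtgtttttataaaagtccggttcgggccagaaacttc
Ccr1, chr9:123968693-123968942, minus strand: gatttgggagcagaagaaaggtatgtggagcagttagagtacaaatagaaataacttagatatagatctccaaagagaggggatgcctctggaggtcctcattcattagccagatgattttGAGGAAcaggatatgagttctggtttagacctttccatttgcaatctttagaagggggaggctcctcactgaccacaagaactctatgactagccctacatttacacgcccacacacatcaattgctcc
Cxcr2, chr1:74153744-74153993, plus strand: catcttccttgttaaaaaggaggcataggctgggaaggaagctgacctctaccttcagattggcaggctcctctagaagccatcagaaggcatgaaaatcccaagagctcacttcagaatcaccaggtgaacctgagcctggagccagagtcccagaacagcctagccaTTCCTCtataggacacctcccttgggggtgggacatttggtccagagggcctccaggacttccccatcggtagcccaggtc
The motif is present once before Ccr1, 129 bases upstream, and once before Cxcr2, 81 bases upstream on the other strand, and these letters are not in the windows of Cx3cr1, Ccr2 and Cxcr4 or in those of Ackr2 and Ccl6. Members that were higher are thus found both with and without it. RefSeq windows were at hand for 42 members, 12 of which hold the motif, and for 7 of the 8 members called in S226A, 2 of which hold it. Of all 32851 promoter windows of this length, 23.3% hold it, so that it is a common sequence and its presence is only described.

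Cx3cr1 (ENSMUSG00000052336.7, chr9:119901616-120069879, minus strand) is the receptor of fractalkine on microglia, macrophages and patrolling monocytes. In brain it stood at 10.7, 13.6, 12 and 13.8 CPM in the wild-type littermates and at 2.59, 2.85, 3.09 and 2.31 CPM in S226A. In liver the wild-type values were 13.6, 9.94, 6.69 and 12.2 CPM and the S226A values 4.42, 4.99, 2.54 and 1.93 CPM. In lung they were 22.1, 19.5, 16.8 and 15.5 CPM against 7.51, 9.70, 6.71 and 7.11 CPM. All 4 S226A libraries lay below all 4 wild-type libraries in each tissue. The log2 fold changes were -2.21 in brain (SE 0.20, edgeR adjusted p = 1.16e-09), -1.60 in liver (SE 0.20, edgeR adjusted p = 1.8e-07) and -1.25 in lung (SE 0.19, edgeR adjusted p = 3.98e-05). Its ligand Cx3cl1 did not pass the test in any tissue. In brain, where Cx3cl1 is high, S226A held 32.1 to 47 CPM and the wild-type littermates 35.7 to 44.7 CPM.

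Ccr2 (ENSMUSG00000049103.14, chr9:124101950-124113557, plus strand) is the receptor for the monocyte attractant Ccl2. It is close in sequence to other CC receptors, and how the authors counted reads that map to several places is not given in the sources used here. Ccr2 in lung stood at 31.3, 27.4, 15.8 and 18.1 CPM in wild type and at 12.2, 10.7, 7.45 and 5.04 CPM in S226A, a log2 fold change of -1.39 (SE 0.23, edgeR adjusted p = 0.000221) that was not called in a fit of only the libraries compared (edgeR adjusted p = 0.134). In liver, Ccr2 stood at 8.97, 10.6, 11.8 and 9.70 CPM in wild type and at 6.99, 14.4, 12 and 8.04 CPM in S226A (log2 fold change 0.02, SE 0.24, edgeR adjusted p = 0.967). The groups were apart in lung and mixed in liver. Of the 4 monocyte genes tested in lung, Chil3 was called and was higher, and the median log2 fold change was 0.36.

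Of the ligands that bind Ccr2, Ccl2, Ccl7 and Ccl12 were tested in at least 1 tissue and were not called in any S226A tissue. Ccl2 in lung was at 0.516, 0, 0.702 and 0.164 CPM in wild type and at 0.784, 1.35, 1.16 and 0.744 CPM in S226A, without overlap (log2 fold change 1.54, SE 0.69, edgeR adjusted p = 0.244). Ccl3, an inflammatory CC ligand of microglia and macrophages, is given here because its call in brain changed with the tool, which was seen after its values. It was at 0.333 to 0.666 CPM in wild-type brain and 0 to 0.0700 CPM in S226A brain, without overlap (log2 fold change -3.75, SE 0.91, edgeR adjusted p = 0.0593, DESeq2 adjusted p = 0.0463).

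**Figure D3:**
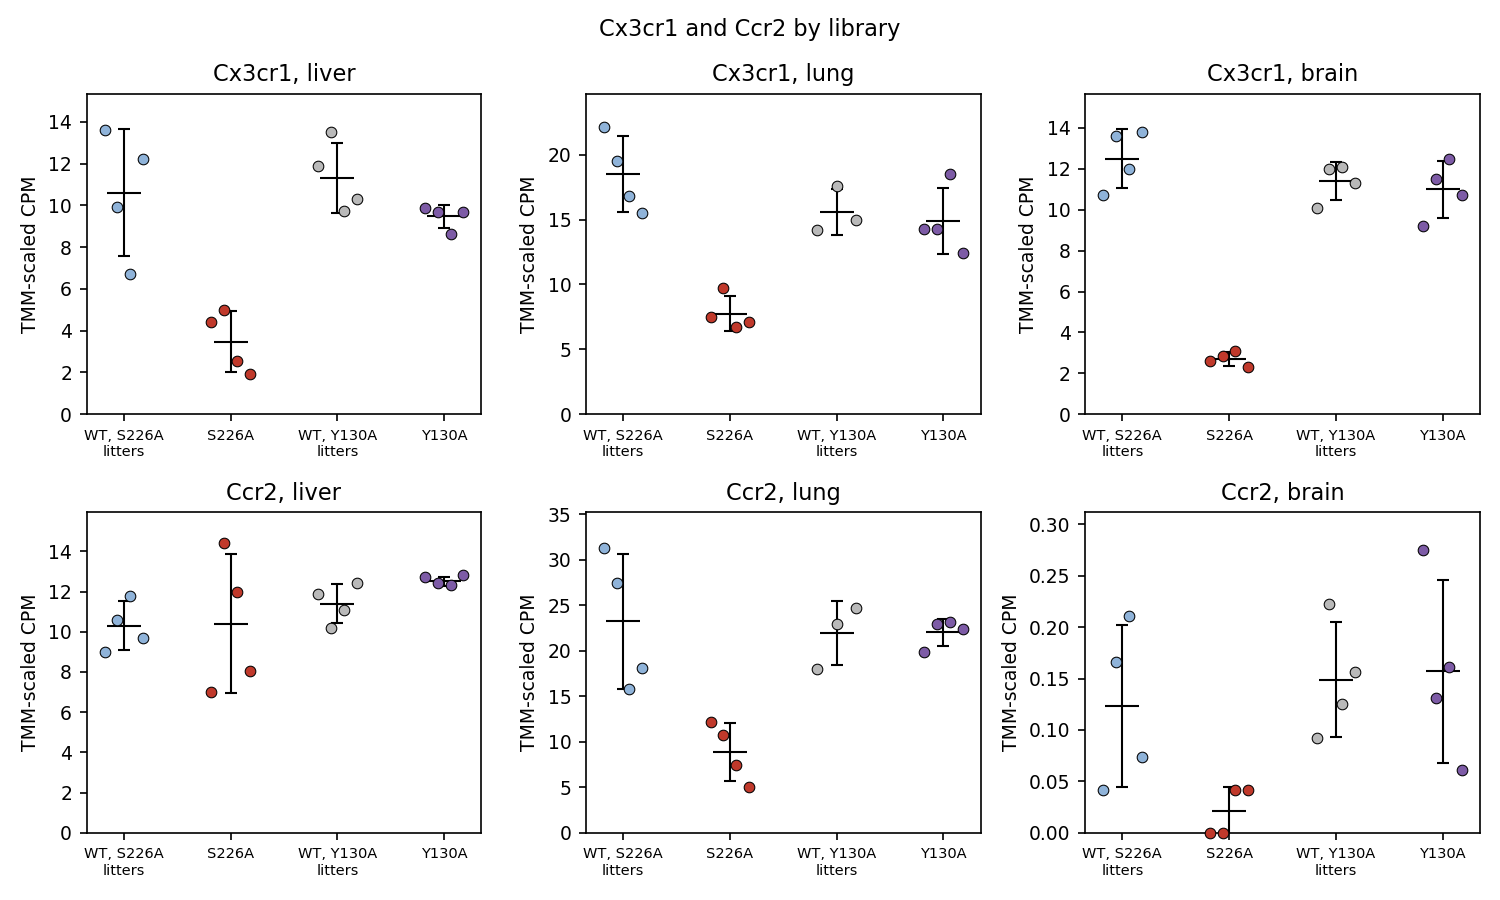
Level of Cx3cr1 and Ccr2 in each library as CPM scaled by TMM factors, with the mean and SD of each group (n = 4, and 3 for lungs of the wild-type Y130A littermates; bars end at 0). The S226A points of Cx3cr1 lie below both wild-type groups in all 3 tissues, and those of Ccr2 in lung but not in liver.

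Macrophage transcripts were also lower, though not every list in each tissue. The gene lists in this report were chosen with earlier results of these data known, so their counts are only described beside the background. In S226A liver, where 6.21% of all genes tested were lower, 8 of 8 macrophage genes (Adgre1, Csf1r, Cd68, C1qa, C1qb, C1qc, Mrc1 and Mertk) were lower, and their summed level was 257 to 318 CPM against 808 to 861 CPM in wild type. Of 5 Kupffer cell genes, 4 were lower and Vsig4 was at 0 counts in all 4 S226A livers, and the sum was 86.4 to 161 CPM against 349.5 to 483 CPM. In S226A lung, where 1.13% of all genes were lower and 1.02% higher, 2 of 8 macrophage genes (Adgre1 and Csf1r) were lower, with a sum of 233 to 245 CPM against 269 to 310.5 CPM. Of the 3 Kupffer cell genes tested in lung, Cd5l and Marco were higher, and the sum of the list was 6.57 to 9.53 CPM in S226A against 2.14 to 5.49 CPM. In S226A brain, where 0.199% of all genes were lower, 4 of 8 macrophage genes and 3 of 5 microglia genes (P2ry12, Fcrls and Siglech) were lower, and the microglia sum was 13.3 to 16.8 CPM against 25.6 to 34.8 CPM. Of the 5 microglia genes, Fcrls and Siglech were also lower in S226A liver and lung. The part of these cells in the receptor values was not tested.

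Cxcl16 and Ackr2 were also lower in S226A liver. Cxcl16 (ENSMUSG00000018920.11, chr11:70453983-70459984, minus strand), a membrane-bound ligand that macrophages also use to take up oxidized lipid, stood at 6.82, 8.82, 7.70 and 7.73 CPM in wild type and at 3.30, 3.56, 2.23 and 4.32 CPM in S226A, without overlap (log2 fold change -1.21, SE 0.23, edgeR adjusted p = 0.000155). Of its exon bases, 18.3% overlap with Zmynd15 on the opposite strand, and the strand setting of the counts is not given in the sources used here. Zmynd15 itself had a log2 fold change of -0.03 in S226A liver (SE 0.46, edgeR adjusted p = 0.979). The receptor of Cxcl16, Cxcr6, was too low to test. Ackr2 (ENSMUSG00000044534.8, chr9:121898355-121911074, plus strand), a scavenger of inflammatory CC chemokines that is made by lymphatic endothelium, stood at 4.36, 4.28, 4.68 and 4.97 CPM in wild type and at 3.56, 1.29, 2.85 and 0.598 CPM in S226A. Its log2 fold change of -1.15 (SE 0.35, edgeR adjusted p = 0.0234) rests on single libraries: without the fourth S226A liver it was -0.86 (edgeR adjusted p = 0.109), without the second -0.96 (0.0914) and without the fourth wild-type liver -1.11 (0.0503). A fit of only the libraries compared did not call it (edgeR adjusted p = 0.176). Of 6 endothelial genes, Cdh5 and Pecam1 were lower in S226A liver (background 6.21%), and their part in the value was not tested.

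The 3 receptors that were higher in S226A liver are known from myeloid and blood-forming cells. Cxcr4 (ENSMUSG00000045382.6, chr1:128588199-128592293, minus strand) stood at 32.3, 35.9, 39.3 and 36.5 CPM in wild type and at 74.7, 60.3, 71.1 and 67.5 CPM in S226A, a log2 fold change of 0.93 (SE 0.11, edgeR adjusted p = 1.85e-08). Ccr1 (ENSMUSG00000025804.5, chr9:123962124-123968692, minus strand), a receptor of neutrophils and monocytes for Ccl6 and Ccl9 among others, stood at 10.9, 12, 10.6 and 10.4 CPM against 28.2, 29.2, 25.4 and 23.9 CPM (log2 fold change 1.28, SE 0.20, edgeR adjusted p = 9.68e-06). Cxcr2 (ENSMUSG00000026180.8, chr1:74153989-74161246, plus strand), by which neutrophils leave the marrow and enter tissue, stood at 17.6, 13.4, 17.9 and 17.1 CPM against 31.3, 36.5, 39.9 and 33.6 CPM (log2 fold change 1.10, SE 0.31, edgeR adjusted p = 0.0115). For each of the 3 receptors every S226A liver lay above every wild-type liver.

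Ccl6 (ENSMUSG00000018927.3, chr11:83587882-83593087, minus strand), a CC ligand of myeloid cells, stood at 8.97, 6.12, 7.05 and 6.94 CPM in wild-type liver and at 15.9, 18, 9.84 and 11.1 CPM in S226A liver (log2 fold change 0.92, SE 0.23, edgeR adjusted p = 0.00369). Ccl9, whose gene lies 9.2 kb from Ccl6 and whose product binds the same receptor, was not called: wild-type livers held 92.9 to 117 CPM and S226A livers 88.9 to 123 CPM (log2 fold change 0.03, SE 0.15, edgeR adjusted p = 0.932). Cxcl12, the ligand of Cxcr4, was at 135 to 167 CPM in wild type and 113 to 133 CPM in S226A, without overlap, but was not called (log2 fold change -0.28, SE 0.13, edgeR adjusted p = 0.163). Cxcl1, a ligand of Cxcr2, was at 2.45 to 4.73 CPM against 4.98 to 12.9 CPM (log2 fold change 1.19, SE 0.54, edgeR adjusted p = 0.157), and a fit of only the libraries compared called it (edgeR adjusted p = 0.0418). Cxcl5 was at 0 to 0.461 CPM against 0 to 0.857 CPM.

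Ccl24 was at 6.19 to 10.9 CPM in wild-type liver and 2.52 to 6.19 CPM in S226A liver (log2 fold change -0.90, SE 0.35, edgeR adjusted p = 0.0879). It passed with the litter as block (edgeR adjusted p = 0.0476) and with DESeq2 (adjusted p = 0.0497). Its receptor Ccr3 was not called in liver (log2 fold change -0.95, SE 1.02, edgeR adjusted p = 0.62).

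Neutrophil transcripts were higher in liver beside these receptors, and in part also in lung and brain, where no receptor was called higher. In S226A liver, where 7.02% of all genes tested were higher and 6.21% lower, 10 of 10 neutrophil genes were higher, with a summed level of 8887 to 9570 CPM against 3062 to 3668 CPM in wild type, as were 4 of 5 monocyte genes (Chil3, F13a1, Ly6c2 and Ms4a3, with a median log2 fold change of the list of 1.46). The sum of the monocyte list is not given, since Fn1, which many other cells make, carries most of it. Of 7 genes of the B cell lineage, whose precursors also use Cxcr4, 4 were lower in S226A liver, with a sum of 63.5 to 147 CPM against 152 to 188 CPM. In S226A lung, where 1.02% of all genes tested were higher, 7 of 9 neutrophil genes tested were higher (sum 146 to 199.6 CPM against 36.3 to 81.6 CPM) while Cxcr2 there was at 0.405 to 2.67 CPM in wild type and 1.49 to 3.26 CPM in S226A and was not called (log2 fold change 0.79, SE 0.37, edgeR adjusted p = 0.263), except without the first wild-type lung. In S226A brain, where 0.0577% of all genes were higher, S100a8 and S100a9 were higher of 7 neutrophil genes tested (sum 5.81 to 13.7 CPM against 1.73 to 4.45 CPM). The part of these cells in the receptor values was not tested. Without the 2 livers that hold squamous transcripts the same 7 members were called in S226A liver.

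**Figure D4:**
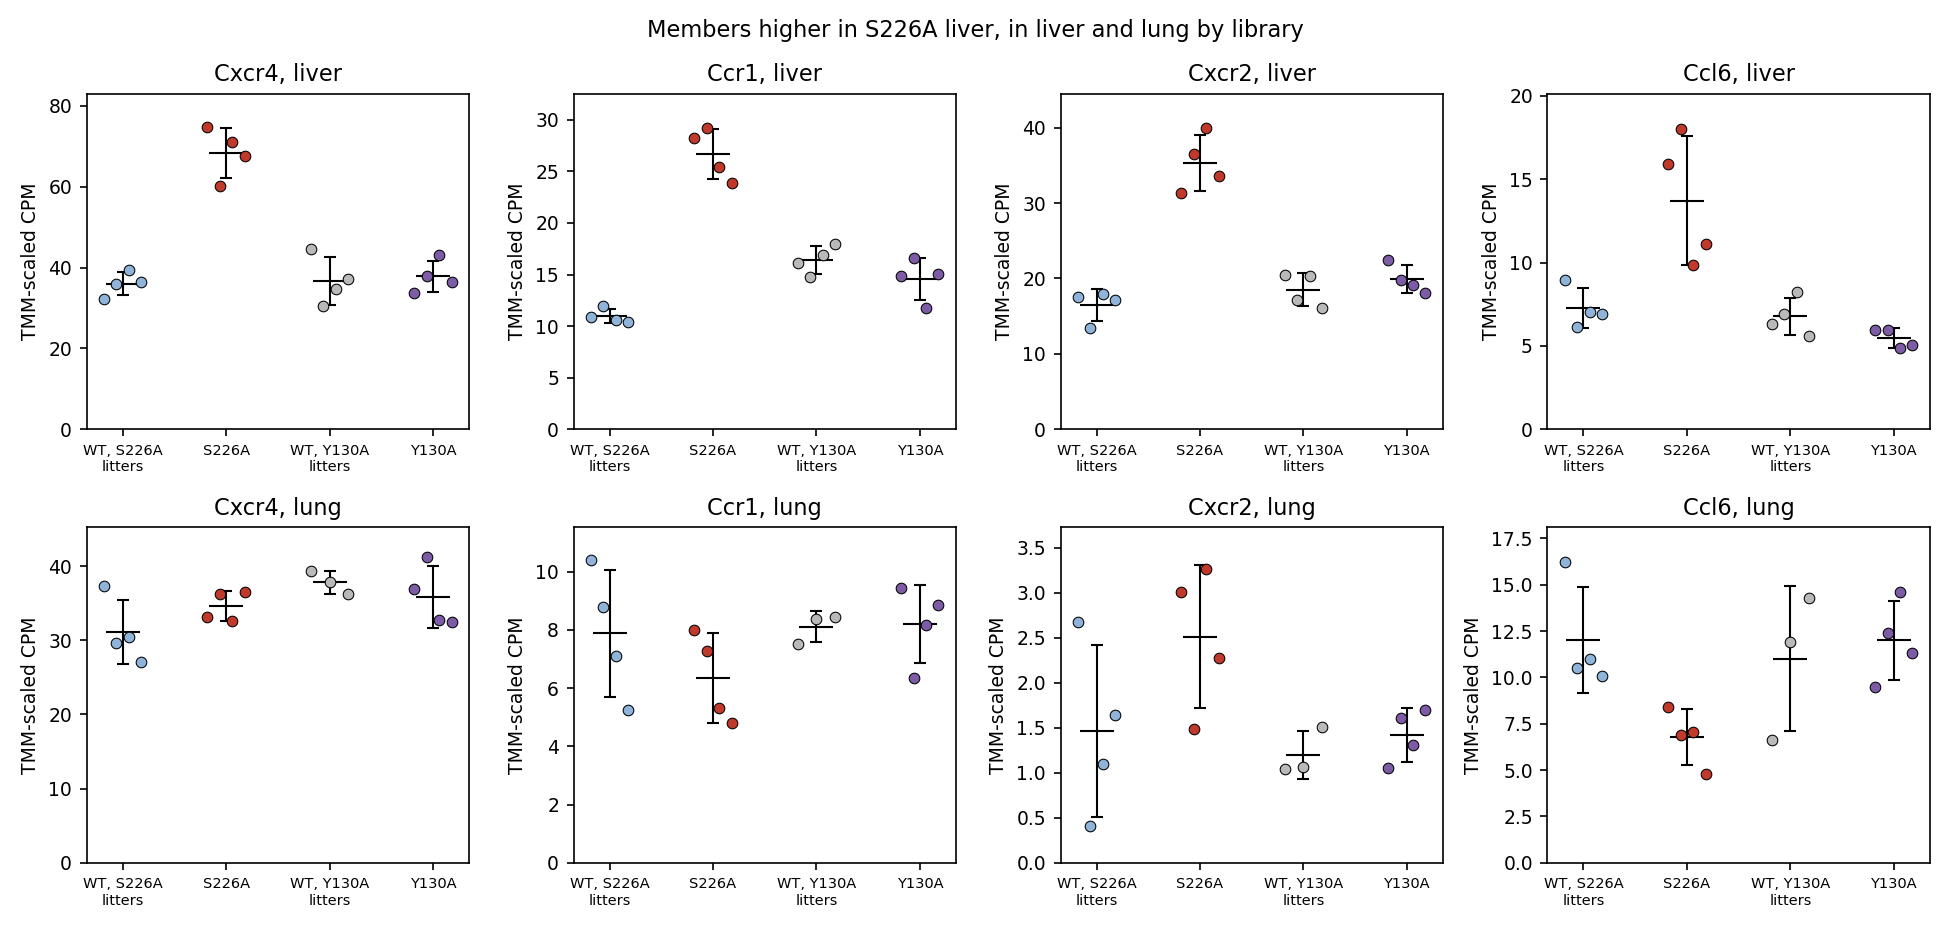
Level of Cxcr4, Ccr1, Cxcr2 and Ccl6 in each liver (top row) and lung (bottom row) as CPM scaled by TMM factors, with the mean and SD of each group (n = 4, and 3 for lungs of the wild-type Y130A littermates; bars end at 0). In liver every S226A point lies above every point of its wild-type littermates, and in lung Ccl6 lies below them.

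Several effects of S226A differed between liver and lung. Ccl6 was higher in S226A liver but lower in S226A lung, where wild type held 16.2, 10.5, 11 and 10.1 CPM and S226A held 8.41, 6.90, 7.04 and 4.79 CPM (log2 fold change -0.82, SE 0.22, edgeR adjusted p = 0.0405). This fall in lung was weak: the call was lost in 6 of 8 fits that left out 1 library, with log2 fold changes of -0.64 (edgeR adjusted p = 0.0894), -0.87 (0.0646) and -0.89 (0.051) without the first, the third and the fourth wild-type lung and -0.82 (0.113), -0.83 (0.0511) and -0.68 (0.155) without the second, the third and the fourth S226A lung. The difference between the effects in liver and lung was therefore tested itself, a test added after the values were seen. It passed for 4 of the 24 members tested in both tissues (16.7%, background 8.31%). Ccl6 differed by a log2 of 1.73 (SE 0.32, edgeR adjusted p = 0.000178), Ccr1 by 1.60 (SE 0.29, 0.000147), Ccr2 by 1.41 (SE 0.33, 0.00401) and Cxcr4 by 0.77 (SE 0.15, 0.000453). All 4 kept their call when any 1 library was left out, and only Ccr2 lost it in a fit of only the libraries compared. Ccr1 in lung was at 5.26 to 10.4 CPM in wild type and 4.79 to 8.0 CPM in S226A, and Cxcr4 in lung at 27.1 to 37.3 CPM and 32.6 to 36.5 CPM. Cx3cr1 did not pass this test (difference -0.35, SE 0.28, edgeR adjusted p = 0.496).

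In Y130A no member was called in any tissue with edgeR or with DESeq2. That is 0 of 32 in liver (background 0.15%), 0 of 32 in lung (background 0.00643%) and 0 of 20 in brain (background 0.00641%). An unadjusted edgeR p below 0.05 was seen for 3, 2 and 2 members. Over all genes it was seen for 994 of 14664, 314 of 15554 and 320 of 15596. The lowest edgeR adjusted p in liver was that of Ackr3 (0.303), at 5.17 to 7.19 CPM in wild type and 2.78 to 4.82 CPM in Y130A, without overlap (log2 fold change -0.57, SE 0.19). Cx3cr1 in Y130A brain stood at 9.21, 11.5, 12.5 and 10.7 CPM against 10.1, 12, 12.1 and 11.3 CPM in its wild-type littermates, and Cxcr4 in Y130A liver at 33.8, 37.8, 43.0 and 36.5 CPM against 44.5, 30.5, 34.6 and 37.2 CPM. The groups overlapped for both receptors. The summed macrophage genes were at 913 to 1007 CPM in Y130A liver and 946 to 1070 CPM in its wild-type littermates.

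The effects of S226A and Y130A were then compared directly by the difference of the effects, each against its own littermates. In liver, 5 of 32 members passed (15.6%, background 5.69%): Cxcr4 (difference 0.89, SE 0.15, edgeR adjusted p = 9.2e-05), Ccr1 (1.45, SE 0.28, 0.00062), Ccl6 (1.23, SE 0.32, 0.0122), Cx3cr1 (-1.34, SE 0.28, 0.00138) and Cxcl16 (-1.12, SE 0.31, 0.0212). Cxcl16 lost its call without the third S226A liver (-0.97, edgeR adjusted p = 0.0634), the second wild-type liver of the Y130A litters (-0.93, 0.0554) or the fourth Y130A liver (-0.99, 0.0567), in a fit of only the libraries compared (-1.11, 0.0651), and without the 2 livers that hold squamous transcripts. Cxcr2 (0.99, SE 0.43, edgeR adjusted p = 0.189) passed with the litter as block (edgeR adjusted p = 0.0444) and in a fit of only the libraries compared (0.00152). In brain, 1 of 20 passed (background 0.0898%), Cx3cr1 with a difference of -2.16 (SE 0.27, edgeR adjusted p = 6.8e-06). In lung, 2 of 32 passed (6.25%, background 0.347%), Ccr2 (-1.40, SE 0.34, edgeR adjusted p = 0.0474) and Cx3cr1 (-1.19, SE 0.27, 0.0333). Both lung calls lie near the threshold, since leaving out 1 library ended the call of Ccr2 in 10 of 15 fits and that of Cx3cr1 in 8 of 15, with differences of -1.60 to -1.21 and -1.31 to -1.06.

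In S226A brain the litter block added 1 member to the count. Ccl9 was at 0.634 to 1.16 CPM in wild type and 0.330 to 0.595 CPM in S226A, without overlap (log2 fold change -1.24, SE 0.31, edgeR adjusted p = 0.0776 without and 0.048 with the block).

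Ccl28, a mucosal ligand of Ccr10 and Ccr3, stood out in both mutants but lies outside the rule for named members and was chosen after its values were seen. In brain it stood at 1.85, 1.25, 1.80 and 0.999 CPM in the wild-type littermates of S226A and at 6.16, 6.48, 6.15 and 5.57 CPM in S226A. In the Y130A litters it stood at 1.97, 0.840, 2.40 and 0.722 CPM in wild type and at 5.89, 7.15, 6.32 and 6.36 CPM in Y130A. Every mutant brain lay above every wild-type brain of either set. In lung it stood at 0, 0, 0.651 and 1.53 CPM in wild type and 1.61, 2.38, 2.33 and 1.49 CPM in S226A, and at 0.426, 0 and 0.302 CPM in wild type and 1.72, 0.987, 1.00 and 1.04 CPM in Y130A. The Y130A lungs lay above their wild-type littermates, while the fourth S226A lung lay below the fourth wild-type lung. In liver no library held more than 14 counts of Ccl28.

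The fit of all 47 libraries did not call Ccl28 in any mutant comparison. Its log2 fold changes were 2.04 in S226A brain (SE 0.69, edgeR adjusted p = 0.843), 2.11 in Y130A brain (SE 0.68, edgeR adjusted p = 1), 1.87 in S226A lung (SE 0.76, edgeR adjusted p = 0.187) and 2.28 in Y130A lung (SE 0.83, edgeR adjusted p = 1). The lung values rest on single libraries, since leaving out 1 library gave 1.44 to 3.19 in S226A lung and 1.70 to 2.94 in Y130A lung, and none of these fits called it. A fit of only the libraries compared called it in S226A brain (SE 0.19, edgeR adjusted p = 2.08e-05) and not in Y130A brain (SE 0.31, edgeR adjusted p = 0.0738). The effects of the mutants in brain differed by -0.07 on the log2 scale (SE 0.94, edgeR adjusted p = 1), an interval too wide to tell them apart or to call them equal.

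Ccl28 (ENSMUSG00000074715.3) lies at chr13:119623819-119654359 on the plus strand. The gene before it on the same strand is Tmem267, which encodes a membrane protein and ends 12.8 kb before Ccl28 starts. Tmem267, also named here after its values were seen, was called higher in all 6 comparisons, with log2 fold changes of 2.18 to 2.57 and edgeR adjusted p-values of 0.000429 to 0.0457, and in brain it rose from 3.26 to 8.20 CPM in wild type to 21.0 to 37.4 CPM in the mutants. Of the other 8 genes within 500 kb that were tested in at least 1 tissue (Nnt, Paip1, 4833420G17Rik, 3110070M22Rik, Hmgcs1, Nim1k, Zfp131 and Gm21188), none was called in any of these 6 comparisons, the lowest edgeR adjusted p being 0.0986. Some of them had large log2 fold changes without a call, and that of Gm21188, which starts 428 kb from Ccl28 and was too low to test in brain, was 2.04 in S226A lung (edgeR adjusted p = 0.136) and 1.71 in Y130A liver (edgeR adjusted p = 0.353).

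**Figure D5:**
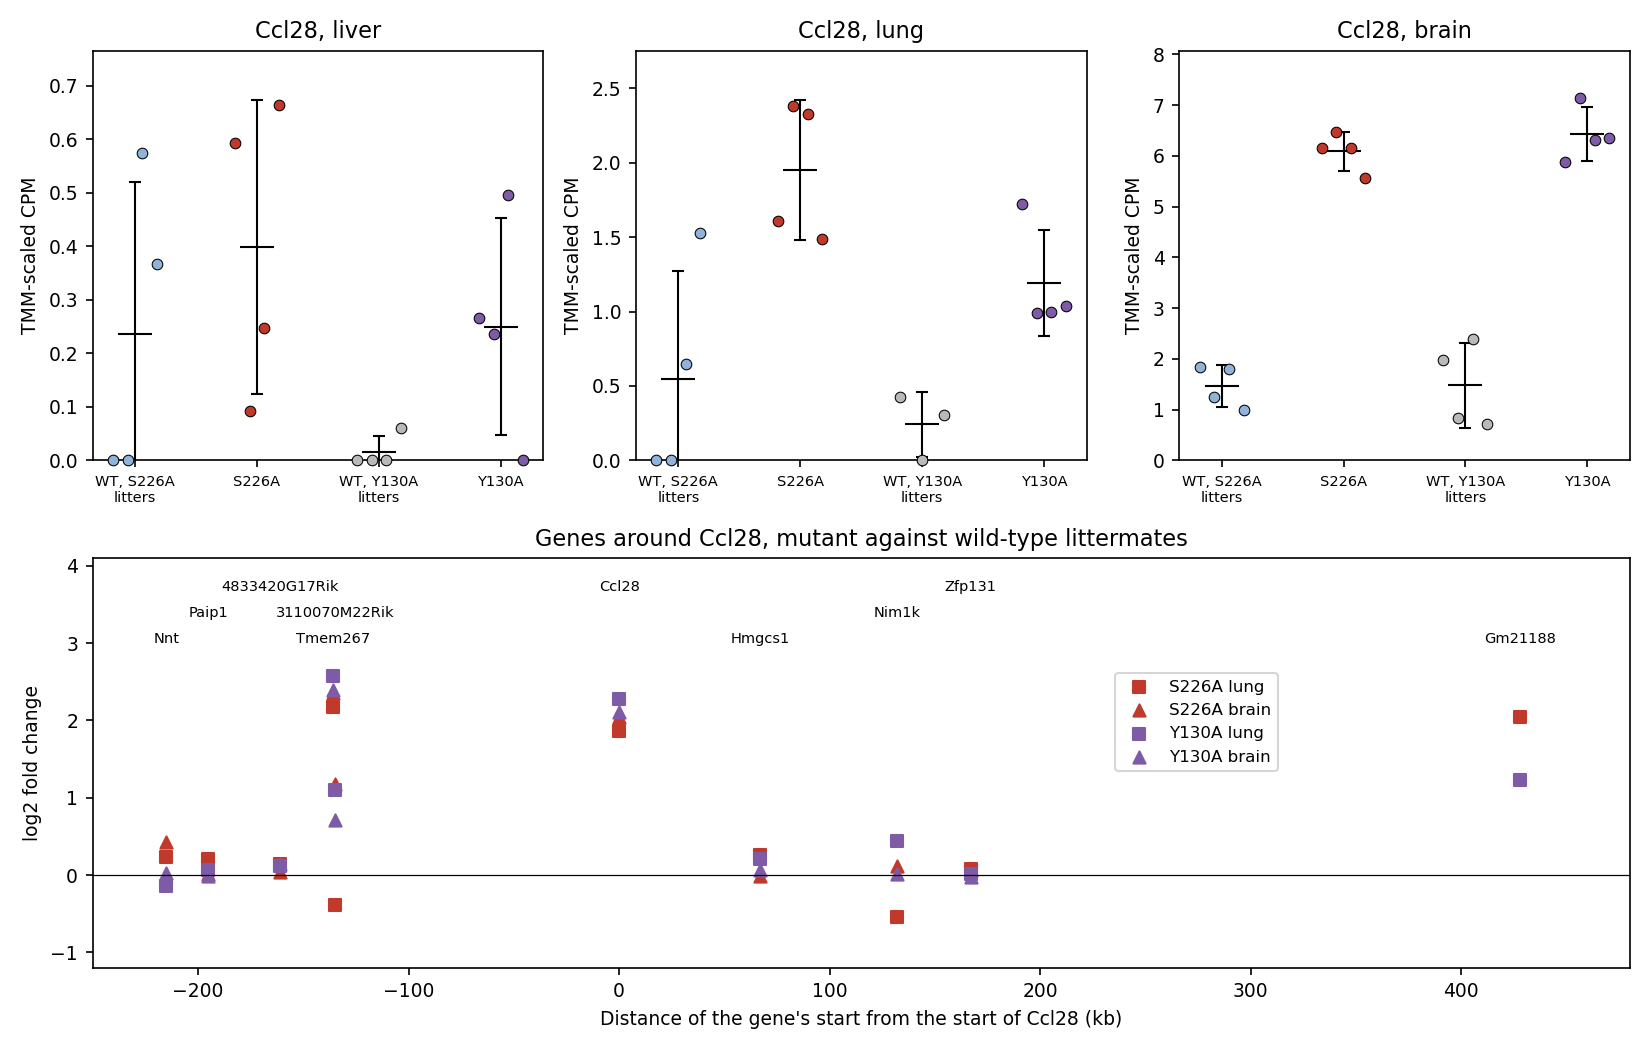
Top: level of Ccl28 in each library as CPM scaled by TMM factors, with the mean and SD of each group (n = 4, and 3 for lungs of the wild-type Y130A littermates; bars end at 0). Bottom: log2 fold changes of the genes around Ccl28 in lung and brain by the distance of their start in kb, where Ccl28 and Tmem267 lie near 2 in both mutants and both tissues. Gm21188 lies at 2.04 in S226A lung and 1.23 in Y130A lung.

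The remaining members named by their level or as partners did not pass in either mutant. Cxcl15 in lung was at 637 to 1156 CPM in wild type and 619 to 1193 CPM in S226A (log2 fold change 0.01, SE 0.34, edgeR adjusted p = 0.993), and at 399 to 726 CPM and 545 to 802 CPM in the Y130A set. Ccl27a in brain had log2 fold changes of -0.03 (SE 0.17) in S226A and -0.01 (SE 0.17) in Y130A, and Cxcl14 there of -0.12 (SE 0.29) and -0.07 (SE 0.28). Ackr1 in liver was at 11.3 to 19.7 CPM in wild type and 11.4 to 15.5 CPM in S226A, and 25.7% of its exon bases are shared with Cadm3 on the same strand. Ackr3 in S226A lung was at 24.7 to 32.8 CPM against 22.3 to 25.4 CPM in wild type (log2 fold change 0.29, SE 0.17, edgeR adjusted p = 0.416).

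Genes linked to the signalling of the receptors, both those that carry it and those that limit it, were taken from a list of 29. Of these, 14 were higher and 2 lower in S226A liver, against 7.02% and 6.21% of all genes tested there. The 14 were Arrb2, Dock2, Elmo1, Fgr, Gnai2, Grk2, Grk6, Pik3cg, Pik3r5, Plcb2, Rac2, Rgs14, Rgs19 and Vav1, and the median log2 fold change of the list was 0.31 beside -0.02 over all genes. Dock2, the Rac activator that drives leukocyte movement toward chemokines, was higher by a log2 of 0.59 (SE 0.12, edgeR adjusted p = 0.000359), and Gnai2, the G protein subunit most used by chemokine receptors in leukocytes, by 0.39 (SE 0.08, edgeR adjusted p = 0.000269). Dpp4, the protease that trims and inactivates Cxcl12, was lower by a log2 of -0.48 (SE 0.13, edgeR adjusted p = 0.00865), and so was the arrestin Arrb1 by -0.32 (SE 0.09, edgeR adjusted p = 0.0132).

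In S226A brain Dock2 was lower by a log2 of -0.86 (SE 0.16, edgeR adjusted p = 0.00248) and Vav1 by -1.06 (SE 0.20, edgeR adjusted p = 0.004), 2 of the 26 tested, against 0.199% of all genes. In S226A lung, Pik3r5 (-0.82, SE 0.23, edgeR adjusted p = 0.048) and Prex1 (-0.42, SE 0.09, edgeR adjusted p = 0.00649) were lower of 29 tested, against 1.13% of all genes. Of 7 chemokines and receptors with other names (Pf4, Ppbp, Ccrl2, Cmklr1, Rarres2, Mif and Cd74), the chemerin receptor Cmklr1 (-1.07, SE 0.19, edgeR adjusted p = 6.13e-05) and the Mif receptor chain Cd74 (-2.31, SE 0.26, edgeR adjusted p = 7.56e-09) were lower in S226A liver (background 6.21%), and none of them was called in S226A lung or brain. In Y130A no gene of either list was called in any tissue.

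Of the other cell type lists, in S226A liver 3 of 5 dendritic cell genes were lower (Clec9a, Siglech and Zbtb46, background 6.21%), as were 3 of 4 squamous genes tested (Krt1, Krt10 and Krtdap), which are high in the second wild-type liver, and 1 of 3 neuronal genes (Map2). No gene was called of those tested for eosinophils and mast cells (7), T and NK cells (6), megakaryocytes (5), erythroid cells (5) and mesenchyme (6). In S226A lung, Ear2 of 5 eosinophil and mast cell genes tested and Siglech of 5 dendritic cell genes were lower (background 1.13%). Stab2 of 6 endothelial genes was higher there (background 1.02%). In S226A brain, Siglech of 4 dendritic cell genes tested was lower (background 0.199%). In Y130A no gene of any cell type list was called in any tissue.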

How the data were processed

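RNA-seq libraries of liver, lung and brain were prepared from Trizol RNA of flash-frozen E18.5 embryos. Per the labels and the study's methods, the authors trimmed reads with Trim Galore 0.6.5, checked them with FastQC 0.11.5 and aligned them with STAR 2.6.0b to GRCm38.p6, and they deposited raw gene counts. The strand setting and the treatment of reads that map to several places are not given in the sources used here. Genotypes came from the labels, and litters and embryos were read from the numbers in the sample titles. The members and gene lists were chosen with earlier results of these data known. Some genes are not reported here and are left out of the counts of members and of listed genes, but not of the fits.

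All 47 libraries were fitted together with edgeR 4.0.16 (R 4.3.3) with TMM scaling, 1 coefficient per group and the quasi-likelihood test. A gene was tested in a tissue if 4 or more of its libraries held 10 or more counts, p-values were adjusted by Benjamini-Hochberg over all genes tested, and calls needed an adjusted p below 0.05. CPM values are scaled by TMM factors, and RPKM values use the exon length of the annotation. Library totals were 15722147 to 54885020 counts, and single values carry at least counting error. Named are members called in a mutant comparison or in the test between mutants, the 5 highest of each wild-type tissue and their ligand or receptor partners. The fit was tested on simulated data. Same-litter libraries deviated together (correlation over 0.1 in 18 of 23 pairs, against 4 of 69 other pairs), so a fit with litter or embryo as block was an alternative, beside DESeq2 1.42.0, RLE size factors, other filters, only the libraries compared, thinning of the deeper set and leaving out each library. No pair of replicates agreed within sampling noise (lowest chi-square per degree of freedom 4.09 over 69 pairs). Promoters came from RefSeq (GRCm38.p6).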

Additional observations from a re-analysis of the deposited data

Results flagged for a closer look

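One of 22 groups tested held a library far from the others. Ccl6 in the wild-type lungs of the S226A litters was highest in the first library, with a gap to the next that was 0.846 of the range of the group, and chance gives about 1 such group in 20.

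The effects of S226A and Y130A differed by the test of the difference for 5 members in liver, with log2 differences of 1.23 for Ccl6, 1.45 for Ccr1, -1.34 for Cx3cr1, -1.12 for Cxcl16 and 0.89 for Cxcr4. In lung the differences were -1.40 for Ccr2 and -1.19 for Cx3cr1, and in brain -2.16 for Cx3cr1. The effects of S226A in liver and lung differed by 1.73 for Ccl6, 1.60 for Ccr1, 1.41 for Ccr2 and 0.77 for Cxcr4.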

How the results depend on the processing

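The calls of Cxcr4, Ccr1, Cxcr2, Ccl6, Cx3cr1 and Cxcl16 in S226A liver and of Cx3cr1 in S226A lung and brain kept their direction and their side of the threshold in all alternatives run for the 0.05 threshold, and no named log2 fold change reversed. The stringent criterion left 3 of 7 members in liver, where DESeq2 and the litter block added Ccl24 and only the libraries compared added Cxcl1 and lost Ackr2. For the difference between mutants in liver, DESeq2 added Ackr3, and only the libraries compared added Ccl24 and Cxcr2 and lost Cxcl16. In S226A lung, only the libraries compared gave 1 member (Cx3cr1) in place of 3, no filter gave 2 (without Ccl6), and leaving out single libraries gave 2 to 4 (adding Cxcr2 without the first wild-type lung and Cxcl12 without the second). In S226A brain, DESeq2 gave 3 in place of 1 (adding Ccl3 and Ccl9), while 2 were called with only the libraries compared (adding Ccl28), the litter as replicate block (adding Ccl9) and the deeper set thinned (adding Ccl3), and 1 to 2 without single libraries. For the difference between mutants in lung, filterByExpr, no filter and thinning gave 1 in place of 2, only the libraries compared gave 0, and leaving out single libraries gave 0 to 2. The cause was not tested. The litter or embryo block changed no other call than those given here and in the report (Ccl24 and Cxcr2 in liver).

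Over all genes, the calls in S226A liver were 1940, and 1101 with only the libraries compared. In S226A lung they were 334, and 617 with DESeq2, 657 with the block, 32 with only the libraries compared, 976 and 1502 without the first and the second wild-type lung, 170 and 161 without the third and the fourth, and 132 and 181 without the second and the fourth S226A lung, so that the lung background shares are uncertain; in S226A brain 40, and 61 with DESeq2. In Y130A liver they were 22, and 142 with DESeq2, 46 with filterByExpr, 45 without filter, 40 with the block, 47 without the livers holding squamous transcripts, 5 with only the libraries compared and 16 to 47 without single libraries. In Y130A lung they were 1, and 13, 3, 3, 4, 2 and 0 with DESeq2, filterByExpr, no filter, the block, thinning and only the libraries compared and 0 to 5 without single libraries, and in Y130A brain 1, and 2 with DESeq2 and 4 with only the libraries compared. The difference between mutants gave 834 in liver, and 508 with only the libraries compared, and 54 in lung, and 167, 125 and 12 with DESeq2, the block and only the libraries compared and 17 (without the first wild-type lung of the Y130A litters) to 195 (without the second wild-type lung of the S226A litters) without single libraries. The difference between liver and lung gave 1176, and 432 with only the libraries compared. Low members such as Ccl3 in brain rest on few counts, which limits what could be detected.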

Other observations

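A few members outside the rule for named members had values that a reader may want to see, and they were chosen after their values were seen. Cxcl9, an interferon-induced ligand of Cxcr3, stood at 0.123, 0.790, 0.503 and 1.72 CPM in the wild-type livers of the S226A litters and at 4.22, 3.10, 2.35 and 2.72 CPM in S226A liver. The groups did not overlap, but the log2 fold change of 1.97 (SE 0.94) was not called (edgeR adjusted p = 0.179). In the Y130A litters Cxcl9 was at 0 to 1.15 CPM in wild-type liver and 0.195 to 0.993 CPM in Y130A liver.

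Cxcl15, which leads in lung, had 76 counts (1.49 CPM) in the first Y130A brain library and at most 0.184 CPM in the other brains. The highest sum of 4 alveolar genes outside the lung, 18.7 CPM, was also in a Y130A brain, against at most 3.69 CPM in the brains of the other groups.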
